A study of Mus musculus with 4 samples.

Results

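The H19/Igf2 and Rasgrf1 loci, which carry their imprinting methylation on the paternal chromosome, were followed in mouse embryonic stem cells with and without Parp-1. The members were the 8 runs of probes, of 14121 on the array, that lay on chromosome 7 between 142200000 and 142700000 (3 runs) or on chromosome 9 between 89500000 and 90000000 (5 runs). They held all 72 probes of these windows, of 97651 on the array. A run is a set of at least 3 probes with neighbouring starts at most 500 bp apart. In this assay, methylated DNA immunoprecipitation (MeDIP), an antibody to 5-methylcytidine enriches methylated fragments. These carried Cy5 and were set against sonicated whole DNA with Cy3 on a CpG island array. There were 4 arrays: the Parp-1 deficient clones 210-58 and 226-47, both derived from the J1 line and each a single clone, J1 cells treated with the PARP inhibitor PJ34, and untreated wild type J1 cells. Parp-1 attaches poly(ADP-ribose) to nuclear proteins, and PJ34 blocks this activity. The sources used here do not give the kind of Parp-1 allele, the PJ34 dose and duration or the passage of the cells.

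Igf2, which encodes a fetal growth factor, is transcribed from the paternal chromosome, and H19, a non-coding RNA, from the maternal one. Both depend on an imprinting control region between them, which is methylated on the paternal chromosome and bound by CTCF on the unmethylated maternal one. Rasgrf1, which encodes a guanine nucleotide exchange factor of Ras, is controlled in a like manner by a paternally methylated region upstream of its start.

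No gene names come with the probes, so runs were matched to genes by spacing alone. The runs of each window with their flanks were slid along the gene starts of the mouse assembly GRCm38. Runs within 300 bp of a start were counted. Among alignments with at least 2/3 of the highest count, the one with most runs of the window itself was kept. On chromosome 7, 13 of 16 runs fell at a gene start in the kept alignment and 6 in the best one more than 5 kb away from it. On chromosome 9 these were 5 of 7 and 3. The starts of Tmed3 and Rasgrf1 are 204.7 kb apart in GRCm38 and the centres of their runs 204.9 kb, and for Rasgrf1 and Morf4l1 the distances are 205.0 and 204.5 kb. On chromosome 7 the first run lay at the start of Mrpl23, which encodes a protein of the mitochondrial ribosome, and the other 2 at Igf2. On chromosome 9 the runs lay at the starts of Tmed3, Rasgrf1 and Morf4l1. Of the others, 1 run lay 604 bp from an end of Ctsh and 1 lay 548 bp from an end of Adamts7. Equally good alignments on chromosome 9 spanned 700 bp, so these distances are rough.

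The match went against the working name of the loci in one respect. No run lay at H19: its nearest end was 42.3 kb from the Mrpl23 run, inside a gap of 125.6 kb in which no probe started. The H19 to Igf2 interval that holds the imprinting control region was thus represented by no probe. Likewise, no probe started in the 203.2 kb before the Rasgrf1 run, where the paternally methylated region of that gene lies. The insulin gene Ins2 was 14.4 kb from the nearest run, and Th, for tyrosine hydroxylase, lay beyond the window. The values below therefore describe the CpG islands of Igf2 and Rasgrf1 and of their neighbours, and not the imprinting control regions themselves.

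Promoter sequences of Igf2 and Rasgrf1 are shown because the runs lie on them and because the antibody binds methylated cytosines, most of which lie in CpG pairs. They are RefSeq sequences of GRCm38.p6 from 250 bases before to 50 after a start, with each CpG in capitals. Their coordinates cannot be compared with the array positions, which belong to another build. Of 8 genes looked up, H19 included, 5 were in the table, with 4 starts for Igf2. Rasgrf1 (chr9:89909525-89909824, + strand) has 26 CpGs, a number that 16.9% of all 32851 promoters reach. The Igf2 start beside the first probe of the long run (chr7:142658755-142659054, − strand) has 24, reached by 20.0%, and the start beside its last probe (chr7:142661222-142661521, − strand) has 14, reached by 36.3%.
Rasgrf1: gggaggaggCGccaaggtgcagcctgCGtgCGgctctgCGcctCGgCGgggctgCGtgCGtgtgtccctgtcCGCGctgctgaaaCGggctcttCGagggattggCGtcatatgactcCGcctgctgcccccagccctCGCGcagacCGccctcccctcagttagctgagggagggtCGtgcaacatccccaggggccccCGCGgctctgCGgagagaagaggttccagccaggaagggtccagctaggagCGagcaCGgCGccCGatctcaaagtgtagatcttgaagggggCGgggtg
Igf2, start beside the first probe: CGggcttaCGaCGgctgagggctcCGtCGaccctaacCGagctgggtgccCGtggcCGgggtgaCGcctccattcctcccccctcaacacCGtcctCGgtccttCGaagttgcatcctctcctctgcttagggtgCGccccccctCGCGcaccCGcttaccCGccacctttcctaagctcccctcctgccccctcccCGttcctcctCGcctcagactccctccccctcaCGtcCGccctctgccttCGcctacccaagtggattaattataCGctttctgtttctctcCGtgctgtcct
Igf2, start beside the last probe: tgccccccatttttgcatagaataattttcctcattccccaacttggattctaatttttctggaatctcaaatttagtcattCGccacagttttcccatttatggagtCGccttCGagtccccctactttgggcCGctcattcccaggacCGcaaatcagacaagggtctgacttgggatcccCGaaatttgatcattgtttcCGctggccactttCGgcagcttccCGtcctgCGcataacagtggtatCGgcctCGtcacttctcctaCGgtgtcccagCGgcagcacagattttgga

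Values are the mean log2 ratio of immunoprecipitated to whole DNA over the probes of a run, less the median of all probes on that array, so that a typical probe has the value 0. A log ratio also depends on how many CpGs a fragment holds, so ranks between runs are descriptions and not fractions of methylated DNA. Whole-array signals were alike: 99.7% to 99.8% of probes were well above background in Cy3 and 91.3% to 98.0% in Cy5. Clone 226-47 had the narrowest spread of run values, with an interquartile range of 0.999 against 1.37 to 1.48 on the other arrays. One slide held clone 210-58 and wild type, the other clone 226-47 and PJ34 treated cells. Only the clones are replicates of a group, and so few arrays limit the precision throughout.

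**Figure D1:**
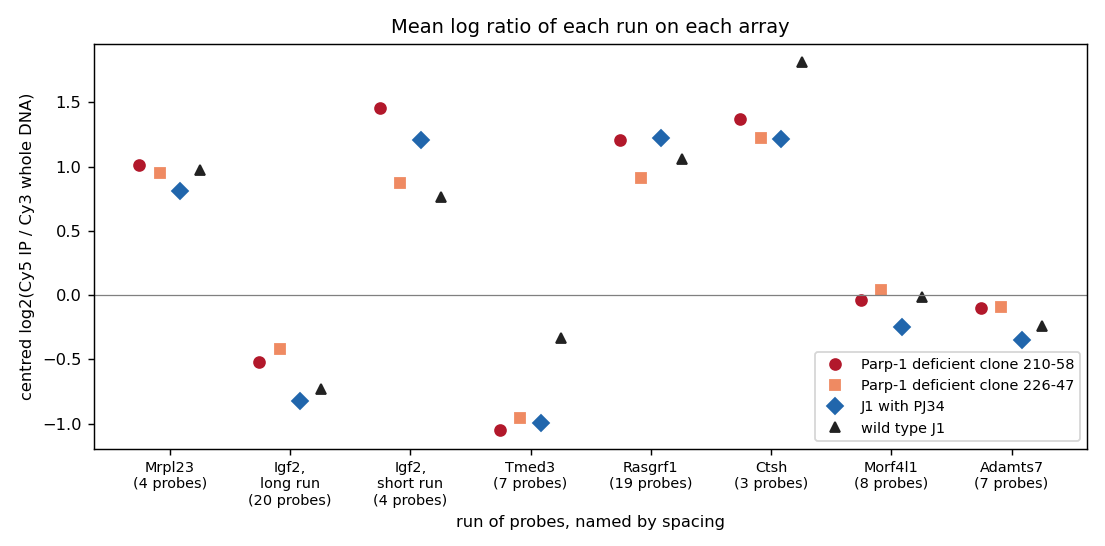
Mean centred log2 ratio of immunoprecipitated (Cy5) over whole DNA (Cy3) for each of the 8 runs, 1 point per array. The Igf2 short run, Rasgrf1, Mrpl23 and Ctsh runs lie above 0 on all arrays, while the Igf2 long run and the Tmed3 and Adamts7 runs lie below 0.

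No member run was called changed in the Parp-1 deficient clones, in any direction. By limma with Benjamini-Hochberg adjustment over all 14121 runs, 0 of 8 member runs differed between clones and wild type, against 2.78% of all runs. At an unadjusted limma p under 0.05 there were 0 of 8 member runs, against 1693 of all 14121 runs. The smallest unadjusted p among the member runs was 0.113. The median difference of the clones from wild type was 0.01 over the 8 runs and 0.01 over all runs. Both clones lay above wild type in 3 runs, below it in 2 and on opposite sides of it in the others. A share of 0 of 8 is what a background of this size would also give, so it sets the loci apart from nothing.

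Igf2 had 2 runs. The long run, on chromosome 7 from 142468408 to 142470758, had 20 probes and lay between 2 Igf2 starts, 0.1 kb beyond one and adjoining the other, and one end of the antisense transcript Igf2os fell inside it. Its log ratio was -0.52 in clone 210-58, -0.42 in clone 226-47, -0.82 in PJ34 treated cells and -0.73 in wild type. The clones were the highest arrays and the other 2 lay below them, but the difference of the clones from wild type, 0.26 (95% interval -0.44 to 0.96, SE 0.36, limma adjusted p = 0.97), was smaller than its error. Among all runs the long run stood at percentile 30.6 in clone 210-58, 23.7 in clone 226-47, 19.4 in PJ34 treated cells and 21.3 in wild type.

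The short Igf2 run, on chromosome 7 from 142473250 to 142473758, had 4 probes, lay 2.5 kb from the long run and within the Igf2 gene, and was more enriched. Its log ratio was 1.46 in clone 210-58, 0.87 in clone 226-47, 1.21 in PJ34 treated cells and 0.76 in wild type. Wild type was the lowest array, yet clone 226-47 was 0.11 above it and clone 210-58 0.69. The clones thus differed from each other (SD 0.42, n = 2) by more than their mean differed from wild type, at 0.40 (95% interval -0.23 to 1.03, SE 0.32, limma adjusted p = 0.78). Clone 210-58 shared the slide of wild type, so its 0.69 is also the within-slide value.

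The probes of the long run followed one profile on every array, with Pearson correlations of 0.86 to 0.94 between arrays over 20 probes that share their DNA and are no replicates. The profile had a peak at the sixth probe, 640 bp from the first, at 1.61 in clone 210-58, 1.48 in clone 226-47, 1.83 in PJ34 treated cells and 1.96 in wild type. The probe 1437 bp from the first was at -3.19, -2.11, -3.60 and -2.98 on the arrays in that order, where Cy5 was not well above background on any array. It was the lowest probe in both clones and in wild type, while in PJ34 treated cells the probe at 726 bp was at -3.61, also not well above background. The 4 arrays shared the position of the peak, and the low values are only bounds.

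The arrays parted over the first probes of the long run, next to the Igf2 start with 24 CpGs. The first probe was at 0.89 in clone 210-58, 0.39 in clone 226-47, 0.0085 in PJ34 treated cells and -0.71 in wild type. The probe 200 bp further was at 0.31, -0.36, -0.34 and -1.28 in the same order. At both probes the wild type array was the lowest, and the clones exceeded it by 1.35 and 1.26 on average. The other 18 probes of the run showed no such difference, from -0.41 to 0.64. Probes at which the clones averaged at least 1 above wild type, and neither lay below it, made up 4.98% of all probes on the array and 3 of the 72 member probes (4.17%), so a pair of them in 20 probes is not unusual for this array.

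**Figure D2:**
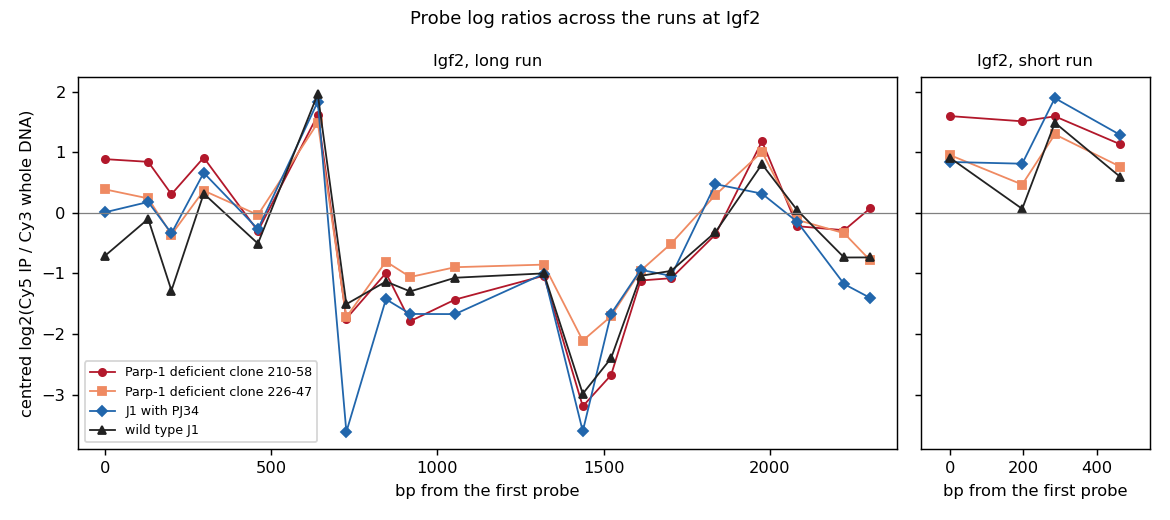
Centred log2 ratio of each probe across the long and short Igf2 runs, against the distance in bp from the first probe of the run, 1 line per array. The lines of the long run share their peak at 640 bp and part at the first probe, where clone 210-58 is at 0.89 and wild type at -0.71.

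Rasgrf1 was represented by 1 run of 19 probes over its start, on chromosome 9 from 89706504 to 89709012. Its log ratio was 1.21 in clone 210-58, 0.91 in clone 226-47, 1.22 in PJ34 treated cells and 1.06 in wild type. Wild type lay between the clones, and the difference of the clones from wild type was -0.001 (95% interval -0.64 to 0.64, SE 0.33, limma adjusted p = 0.9997). The run stood at percentile 82.9 in both clones, 83.3 in PJ34 treated cells and 81.3 in wild type. Cy5 was well above background for all 19 probes on each array.

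The Rasgrf1 profile was also shared, with correlations of 0.87 to 0.95 between arrays over the 19 probes. Its highest probe, 916 bp from the first, was at 3.40 in clone 210-58, 2.96 in clone 226-47, 3.28 in PJ34 treated cells and 2.89 in wild type. Its lowest probe, at 1623 bp, was at -0.36, -0.74, -0.27 and -1.004 in that order. The last probe was at 1.32 in clone 210-58, 0.49 in clone 226-47, 1.85 in PJ34 treated cells and 1.42 in wild type, with clone 226-47 the lowest array and PJ34 treated cells the highest. No probe of this run differed from wild type by 1 or more in the mean of the clones or under PJ34. From the probe at 1623 bp on, however, every probe was higher under PJ34 than in wild type, by 0.43 to 0.82. Before it the PJ34 differences ran from -0.39 to 0.39. The mean of the clones less wild type took both signs from 1623 bp on, from -0.52 to 0.72. This split of the run was seen in the values and was not tested.

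**Figure D3:**
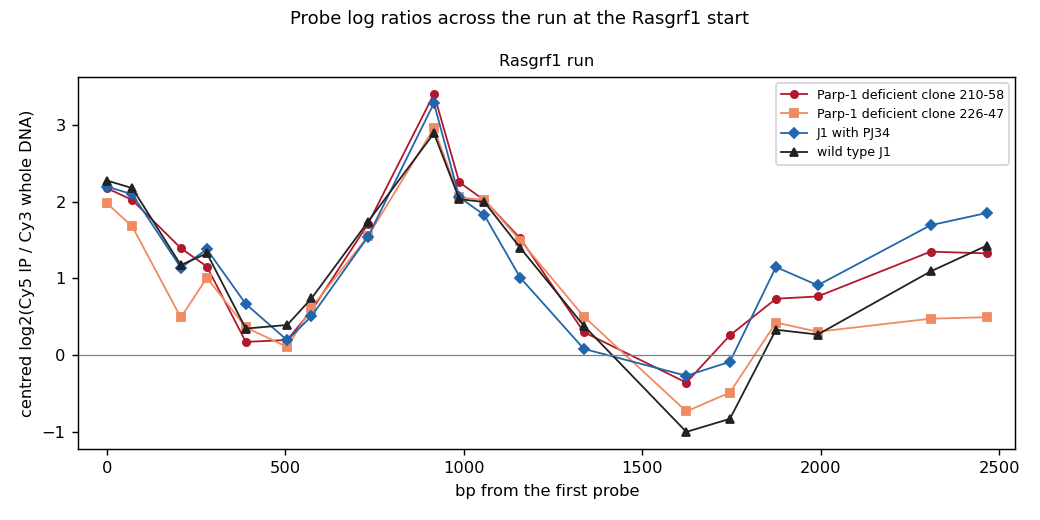
Centred log2 ratio of each of the 19 probes of the Rasgrf1 run, against the distance in bp from the first probe, 1 line per array. The 4 lines peak at 916 bp, between 2.89 and 3.40. At the last probe clone 226-47 is at 0.49 and PJ34 treated cells at 1.85.

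The neighbours of Rasgrf1 held the largest differences from wild type among the members, both in the mean of the clones, where they did not pass the test, and in PJ34 treated cells, where none was run. Tmed3 encodes a cargo protein of the early secretory pathway, and its run (chromosome 9 from 89502504 to 89503293, 7 probes) was at -1.05 in clone 210-58, -0.96 in clone 226-47, -0.998 in PJ34 treated cells and -0.33 in wild type. The 3 arrays of altered cells lay within 0.1 of each other and below wild type, with a difference of the clones of -0.67 (95% interval -1.50 to 0.16, SE 0.42, limma adjusted p = 0.60). Of its 7 probes, Cy5 was well above background for 5 in clone 210-58, 6 in clone 226-47, 5 in PJ34 treated cells and 7 in wild type, so the low values are partly bounds. With only the probes well above background on all arrays the difference from wild type was -0.52 in the clones and -0.39 in PJ34 treated cells, and with normexp background correction it was -0.27 and -0.17. The closeness of the clones to PJ34 treated cells also depended on the scaling, since their difference was -0.26 after quantile normalization and -0.20 after scaling by the median absolute deviation.

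Ctsh encodes the lysosomal protease cathepsin H. Its run of 3 probes (chromosome 9 from 89852371 to 89852683) had the highest mean over the 4 arrays of all member runs and was at 1.37 in clone 210-58, 1.23 in clone 226-47, 1.21 in PJ34 treated cells and 1.81 in wild type. Wild type was again the highest array, with a difference of the clones of -0.51 (95% interval -1.20 to 0.18, SE 0.35, limma adjusted p = 0.66). All comparisons with wild type share its single array, so a high value on that array cannot be told apart from a fall in the others.

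The runs of the other 3 neighbours varied little in their means. Mrpl23 (chromosome 7 from 142342307 to 142342763, 4 probes) was at 1.01 in clone 210-58, 0.95 in clone 226-47, 0.81 in PJ34 treated cells and 0.97 in wild type. Morf4l1, for a chromatin protein with a chromodomain (chromosome 9 from 89911705 to 89912738, 8 probes), was at -0.04, 0.04, -0.25 and -0.02 in that order. Adamts7, for a secreted metalloprotease (chromosome 9 from 89960952 to 89961853, 7 probes), was at -0.10, -0.09, -0.35 and -0.24. In each of them the PJ34 array was the lowest and the arrays spanned at most 0.29. The clones differed from wild type by 0.01, 0.02 and 0.14, with SEs of 0.32, 0.29 and 0.30. Single probes varied more at Morf4l1, where the mean of the clones less wild type ran from -0.67 to 0.72. At Adamts7 it ran from -1.43, where Cy5 was not well above background on any array, to 1.02. Correlations between arrays over the probes were 0.44 to 0.94 at Morf4l1 and 0.37 to 0.85 at Adamts7. Both lowest values involved clone 210-58.

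**Figure D4:**
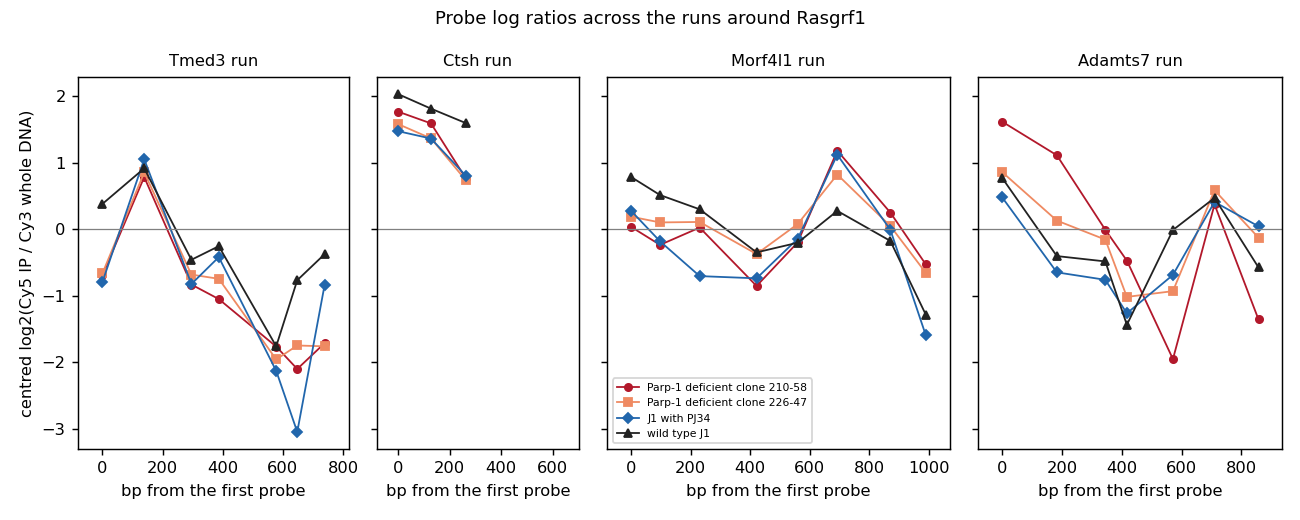
Centred log2 ratio of each probe across the Tmed3, Ctsh, Morf4l1 and Adamts7 runs, against the distance in bp from the first probe of each run, 1 line per array. Wild type is the top line at all 3 Ctsh probes, whereas at Tmed3 it is well above both clones at 3 of 7 probes.

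Probe by probe, the share of lower values was near that of the whole array, which was not tested. Probes at which the clones averaged at least 1 below wild type, and neither lay above it, were 4 of 72 (5.56%) and 4.16% of all probes. Of these, 3 lay in the Tmed3 run and 1 in the Adamts7 run, where a further probe was higher by at least 1. Cy5 was not well above background on any array at the Adamts7 probe, so its difference is not a measured one. At Tmed3, Cy5 was well above background on all arrays only at the first of the 3 probes, at -0.69 in clone 210-58, -0.66 in clone 226-47, -0.79 in PJ34 treated cells and 0.38 in wild type. At the probe at 648 bp it was so only in wild type. The Tmed3 probe 739 bp from the first was at -1.71 in clone 210-58, -1.76 in clone 226-47, -0.84 in PJ34 treated cells and -0.37 in wild type. Both clones lay below the other 2 arrays there, with the value of clone 210-58 a bound.

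In PJ34 treated cells, with 1 array on each side and no test, no member run differed from wild type by 1 or more on the log2 scale, against 3.7% of all runs. The differences were -0.16 for Mrpl23, -0.09 and 0.44 for the long and short Igf2 runs, -0.67 for Tmed3, 0.16 for Rasgrf1, -0.60 for Ctsh, -0.23 for Morf4l1 and -0.11 for Adamts7. Several of these depended on the processing. Over the alternatives the Tmed3 difference lay between -0.67 and -0.17 and that of the short Igf2 run between 0.15 and 0.44. Those of the long Igf2 run (-0.13 to 0.05), Rasgrf1 (-0.07 to 0.27) and Adamts7 (-0.24 to 0.06) took both signs. The lowest Rasgrf1 value came with gaps of at most 250 bp, where only the probes before 1623 bp stayed in the run. Single probes higher by at least 1 numbered 0 of 72, with 5.73% over the array, and probes lower by at least 1 numbered 4 of 72 (5.56%), with 7.38% over the array. One of these was the seventh probe of the long Igf2 run, at -3.61 in PJ34 treated cells and -1.51 in wild type, where Cy5 was not well above background under PJ34. The PJ34 array was on another slide than the wild type array, and the effect of the drug cannot be told apart from that of the slide.

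Set directly against PJ34 treated cells, the clones again gave 0 of 8 calls by limma, against 1.35% of all runs. At an unadjusted limma p under 0.05 there were 0 of 8 member runs, against 1172 of all 14121 runs. The largest difference was at the long Igf2 run, where both clones lay above PJ34 treated cells, by 0.35 (95% interval -0.33 to 1.03, SE 0.35, limma adjusted p = 0.999). At Tmed3 the clones and PJ34 treated cells differed by -0.005 (95% interval -1.02 to 1.01). Both clones were higher than PJ34 treated cells in 5 runs and lower in 1, the Rasgrf1 run, with differences of -0.01 for clone 210-58 and -0.31 for clone 226-47.

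**Figure D5:**
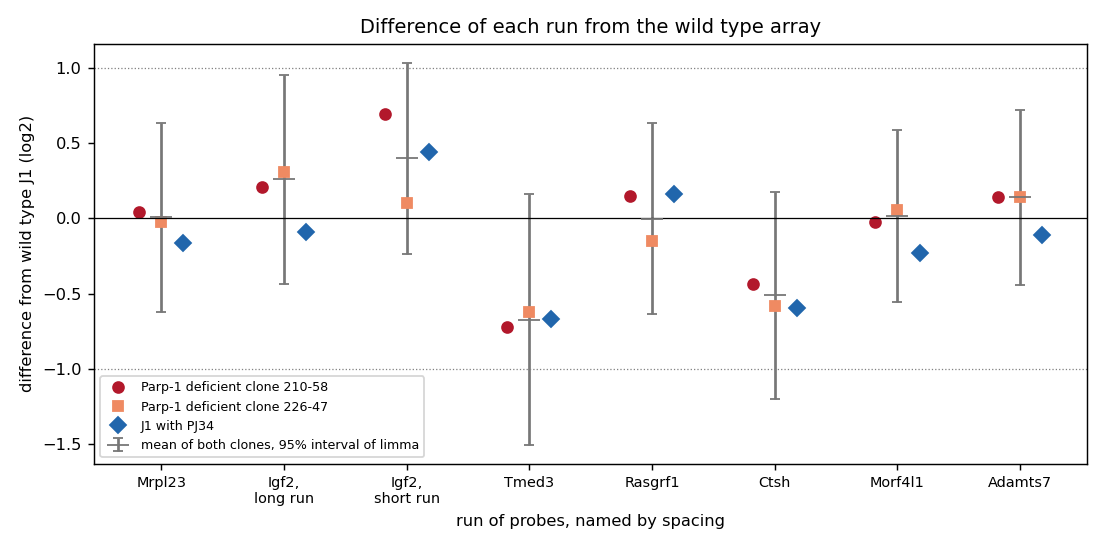
Difference of each run from the wild type array on the log2 scale, for each clone and for PJ34 treated cells, with the mean of the clones and its 95% interval from limma. All 8 intervals include 0, and all single-array differences lie between the dotted lines at -1 and 1.

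The whole DNA channel follows the copy number of a locus. In the mean of the clones the Cy3 signal, centred on each array, differed from wild type by -0.08 to 0.16 over the 8 runs. Single clones ranged from -0.15 at Morf4l1 to 0.18 at Tmed3, both in clone 210-58. Clone 226-47 was at 0.08 at Morf4l1, and at Ctsh clone 210-58 was at -0.11 and clone 226-47 at 0.08. The mean thus hides opposite signs at these genes. By limma 0 of 8 were called, against 0.00708% of all runs. At an unadjusted limma p under 0.05 there were 0 of 8 member runs, against 949 of all 14121 runs. At the long Igf2 run the difference was 0.001 in clone 210-58 and 0.0007 in clone 226-47. At Rasgrf1 it was 0.11 in clone 210-58, 0.10 in clone 226-47 and 0.11 in PJ34 treated cells. The largest was at Tmed3, 0.16 (95% interval -0.04 to 0.36), where PJ34 treated cells were 0.21 above wild type, and this denominator moved with the lower log ratio. Its part in the result was not tested beyond the Cy5 signal alone, with which the clones differed from wild type at Tmed3 by -0.51.

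The size of these differences can be set beside islands of maternally methylated genes that were chosen for their falls, with no test. The run over the Peg3 and Usp29 starts, on chromosome 7 from 6333486 to 6334587, was at -1.60 in clone 210-58, -1.13 in clone 226-47, 4.45 in PJ34 treated cells and 3.49 in wild type. The run 0.8 kb from the Airn start, in Igf2r, on chromosome 17 from 12584752 to 12585952, was at -0.57, -0.03, 4.21 and 3.60 in the same order. These genes were matched by spacing as above. In wild type the member runs lay lower than these islands, between -0.73 at the long Igf2 run and 1.81 at Ctsh. The long Igf2 run was thus already at the level that the fallen islands had in the clones. A fall of like size was not open to it, so the comparison cannot show whether this run was spared. The short Igf2 run, at 0.76 in wild type, and the Rasgrf1 run, at 1.06, lay above the level of the fallen islands in the clones. For the clones against wild type, the lower bounds of their 95% intervals were -0.23 and -0.64. They too began lower than the islands did in wild type, and whether they were spared was not tested. For the clones against wild type, the lowest bound of a 95% interval was -1.50 among the member runs, at Tmed3, and -0.64 among the Igf2 and Rasgrf1 runs. Against PJ34 treated cells it was -0.83 among the Igf2 and Rasgrf1 runs, at Rasgrf1. Strongly enriched islands of the same stretches, chosen as the highest in wild type, were at 4.67, 3.88, 5.50 and 4.63 on chromosome 7 from 6581237 to 6581606, and at 5.25, 4.85, 5.61 and 4.74 on chromosome 17 from 12114996 to 12115404.

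Runs elsewhere with the most like values over the 4 arrays were found by Euclidean distance. Nearest to the short Igf2 run, at a distance of 0.0953, was a run on chromosome 10 (5999480 to 5999747). Runs on chromosomes 16 (17710993 to 17712223, distance 0.102) and 13 (54201632 to 54202042, distance 0.158) followed, and 233 runs were within 0.5. Nearest to the Ctsh run, at a distance of 0.177, was a run on chromosome 4 (129549940 to 129550264). Runs on chromosomes 2 (173221062 to 173221443, distance 0.213) and 7 (141144980 to 141146298, distance 0.215) followed, and 155 runs were within 0.5. With 4 arrays such likeness is common.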

How the data were processed

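Genomic DNA was sonicated and in part immunoprecipitated, per the labels' protocols, with Cy5 on the immunoprecipitated and Cy3 on the whole DNA and no dye swap. Scans were read with Agilent Feature Extraction 10.7.3.1, per the file headers (version 9.1 per the submitters' processing notes), which made the deposited intensity values. Processed intensities are background-subtracted and dye-normalized by a linear factor per channel, per the file headers. The sources used here do not name the build of the probe positions; genes were matched by spacing to GRCm38 starts, within 300 bp, sliding by up to 1 Mb.

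Controls (5950 spots), 442 probes without a position and 30 with an outlier flag were left out; no member probe was lost. Each array's log2 Cy5/Cy3 was centred on its median, with no loess or quantile step. Run means were compared by limma 3.58.1 under R 4.3.3 (eBayes with trend, Benjamini-Hochberg over 14121 runs, 0.05). The 2 clones alone gave the spread, with 1 residual degree of freedom and a prior of full weight, so SEs follow the general trend. The p-values thus reflect how far the clones differed over the runs of the array in general, and not at the run itself. That general spread may be technical. Every member run is reported. Those 2 with the highest mean per window, or past a threshold, were to be shown by probe, and the nearest 3 patterns named. Of those, the Mrpl23 run is given by its mean only. The long Igf2, Tmed3, Morf4l1 and Adamts7 runs are shown by probe beyond this plan. The fit was tested on simulated data, but the outcome is not reported here, so no value above rests on it. The members and comparisons were chosen with earlier results of these data known.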

Additional observations from a re-analysis of the deposited data

How the results depend on the processing

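The count of 0 member runs was the same in all 10 alternatives for the clones against wild type and against PJ34, and in the 9 that apply to PJ34 against wild type, except that a size of 0.5 gave 2 runs (Tmed3 and Ctsh). The differences of the clones from wild type ranged from -0.82 to -0.27 at Tmed3 and from -0.53 to -0.23 at Ctsh. The smallest adjusted p was 0.113, at Tmed3. No paired analysis was possible because each group but the clones has 1 array; a slide term left no residual degrees of freedom. Without either clone no member run differed by 1. Over all runs, calls for the clones against wild type were 27 after quantile normalization, 0 after intensity loess, 781 after scaling by the median absolute deviation and 182 without the trend. Against PJ34 they were 10, 1 and 95 after quantile normalization, loess and without the trend. Runs past 1 under PJ34 were 99 with normexp, 65 with loess, 840 with medians over probes and 3196 at a size of 0.5. Runs differing by at least 1 in the clones from wild type were 554 to 891 (891 without clone 226-47, 523 with both), and from PJ34 498 to 695 (695 without clone 210-58, 392 with both). Whole DNA calls were 25 with normexp, 0 with medians and 0 without the trend. Normexp moved the median difference of all runs to 0.11. Small differences changed sign, none of them called: for the clones against wild type, Mrpl23 to -0.020 with normexp, -0.024 with medians and -0.072 with Cy5 alone; Rasgrf1 to 0.047 with quantile normalization, 0.068 with scaling and 0.10 with Cy5 alone; Morf4l1 to -0.049 with medians and -0.023 with Cy5 alone. Against PJ34, the short Igf2 run went to 0.14 with normexp, 0.13 with quantile normalization, 0.15 with scaling and 0.14 with medians, and Rasgrf1 to 0.0026 and 0.045 with quantile normalization and scaling. For PJ34 against wild type, the long Igf2 run went to 0.0015 with scaling and 0.049 with bright probes only. Rasgrf1 went to -0.068 with gaps of 250 bp and -0.026 with medians, and Adamts7 to 0.059 with Cy5 alone. Gaps of 250 bp split the Rasgrf1 run, so -0.068 covers only its probes before 1623 bp and not the same set of probes. In whole DNA, Mrpl23 went to 0.0070 and the short Igf2 run to 0.080 with normexp. The cause of the other changes was not tested.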
